A study of Mus musculus with 446 samples.

Results

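Abdominal adipose tissue was compared with skeletal muscle in male Diversity Outbred mice on the control diet. The comparison used 61 mice that had an adipose library with a table sum of at least 50000 TPM and a muscle library with at least 8000 genes at 1 TPM or more. TPM is an abundance corrected for transcript length and library total. Their libraries were paired by mouse number, out of 73 adipose and 74 muscle control libraries and 446 libraries in the series. The minimums left out 11 adipose libraries, of which the nearest had a sum of 41010 against 62270 in the lowest library kept, and 1 muscle library, with 6286 genes against 8962. Diversity Outbred mice are an outbred stock, so the animals differ in genotype. The mice were housed singly from 6 weeks of age and ate a diet with 10 kcal% fat before and through the 14 weeks of the study, with fasts before glucose measurements. High-fat mice, which are set beside them in 1 paragraph, ate a diet with 60 kcal% fat for the 14 weeks. RNA came from 60 mg of adipose tissue and 20 mg of muscle, with a minimum RNA quality number of 7 and 8 respectively. The labels do not name the muscle or the abdominal fat depot, and each library is bulk tissue.

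White adipose tissue stores triglyceride in large adipocytes and releases fatty acids by lipolysis, under the control of insulin and catecholamines. Skeletal muscle is made of multinucleated fibres that contract when calcium leaves the sarcoplasmic reticulum, and it burns glucose, glycogen and fatty acids. Both tissues take up glucose through the same insulin-responsive transporter and clear circulating triglyceride with the same lipase. Many enzymes exist as paralogs of which muscle uses its own form.

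The adipose table holds 2728 complete genes, all of them in the muscle table, and the comparison covers these genes. It ends in an incomplete line, which was dropped. Gene lists are represented only by their members among these genes, such as 9 of 49 adipocyte genes. Adiponectin, leptin, most myosin heavy chains and creatine kinase M are among the genes not analysed here. The summed TPM of the shared genes was 6.23% to 16.9% of all TPM in adipose tissue (median 14.7%) and 3.03% to 14.2% in muscle (median 12.1%). Read depth cannot be recovered from TPM and is unknown here, and the number of mice sets the precision. Levels are given as scaled TPM. Libraries were scaled to the typical gene within each tissue, and 1 constant of 1.36 on the log2 scale then set the typical gene of both tissues to the same level. Without this scaling the median tested gene was 1.24 log2 units higher in adipose tissue than in muscle, against 0.07 with it. Differences below are relative to the typical gene. Where a named gene is called on one of these scales and not on the other, or changes sign, its deposited difference stands beside it, and list counts that move by over 1.5 times are given on both.

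Some libraries held transcripts of other tissues. The 9 adipocyte genes measured (Retn, Lipe, Pparg, Lpl, Plin4, Cd36, Acsl1, Mlxipl and Slc2a4) summed to 2777 to 13500 scaled TPM in adipose libraries (median 8164) and to 955 to 4153 in muscle libraries (median 1744). The muscle libraries of mice 69, 67 and 15 had the highest adipocyte sums, 4153, 3930 and 3753. The 5 sarcomere genes of the table summed to a median of 2.76 in adipose libraries, with the defining Myl2 at a median of 0, and to 26210 in muscle libraries. Adipose libraries of mice 69, 13, 66 and 14 reached sarcomere sums of 240, 182, 103.7 and 57.6, mainly from Tnnc2 and Mybpc1, while Pvalb stayed at or below 3.59 in every adipose library. The 4 smooth muscle genes summed to 1190 to 2231 in the adipose libraries of mice 69, 13, 58, 14 and 66, against a median of 86.3. Gpx5, a glutathione peroxidase secreted by the epididymis, reached 8851 and 3879 in the adipose libraries of mice 9 and 17, and genes of the male reproductive tract summed to 285.5 and 161.9 in those of mice 67 and 51. Lymphocyte genes summed to 476, 231 and 134.7 in the muscle libraries of mice 62, 21 and 10, against a muscle median of 5.69. Their part in the differences was measured by leaving out 13 mice with such libraries: 853 genes were then called, against 791 in all 61 mice. A mouse was left out where its muscle adipocyte sum was over 2 times the median. It was also left out where another of these sums was over 10 times its tissue's median and at least 50. Libraries under these cuts stayed in, such as the muscle library of mouse 6, with an adipocyte sum of 3127. The adipose library of mouse 43 also stayed in, with an adipocyte sum of 3203. It had the highest adipose level of Cd52, a gene outside these lists, at 3610. This library gave the lowest adipose values quoted below for Lpl and Slc2a4 and the highest for Rpl3l.

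**Figure D1:**
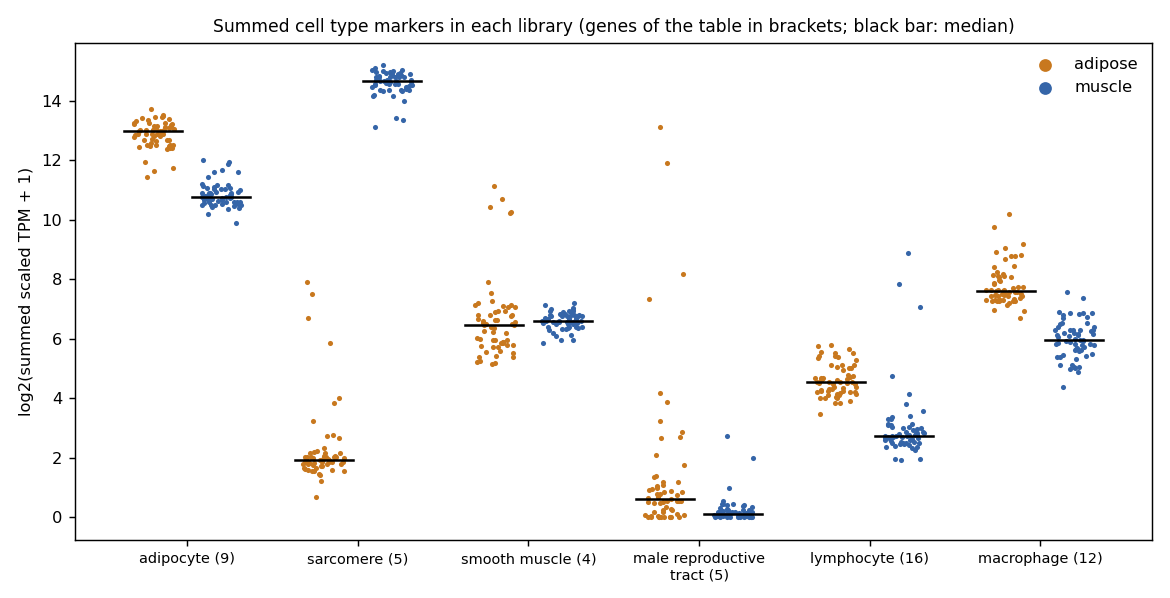
Summed scaled TPM of 6 marker lists in each of the 61 adipose (orange) and 61 muscle (blue) libraries of control mice, on a log2(sum + 1) axis. Sarcomere sums separate the tissues, while adipocyte sums overlap, with the lowest adipose library at 2777 and the highest muscle library at 4153. A few libraries stand far above their own tissue for smooth muscle, male reproductive tract and lymphocyte genes.

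Of the 2728 genes, 2104 reached 1 scaled TPM in 70% of the mice in at least 1 tissue and were tested. A gene was called where the adjusted p of limma's paired fit was under 0.05 and the fold was at least 2, and 791 genes were called (37.6% of those tested). Of these, 411 were higher in adipose tissue (19.5%) and 380 were higher in muscle (18.1%). At any fold, 1945 genes passed (92.4%). At the far end, 0 genes were at least 100-fold higher in adipose tissue against 21 in muscle, and 1 against 28 were at least 32-fold higher (0 against 16 and 6 against 25 as deposited). At 8-fold the order depends on the scaling, with 20 genes higher in adipose tissue against 71 in muscle, but 69 against 44 with libraries scaled to the same sum and 91 against 44 with the tissues anchored on the proteasome genes. Every muscle library lay above every adipose library for 195 genes (9.27%), and every adipose library above every muscle library for 39 genes (1.85%). These counts depend on the constant between tissues and were not repeated under the other scalings. The same holds for each gene said below not to overlap. On the deposited scale 58.99% of the tested genes were called higher in adipose tissue and 5.37% higher in muscle. The other 3 scalings tried each moved the median gene towards adipose tissue, so they try only the calls towards muscle, of which 30.3% of 380 were called the same way under all 4 scalings. Of the 2104 genes, 6.75% passed the minimum in adipose tissue only, of which 68 genes were called, and 73 in muscle only, of which 57 were called. Such genes had to differ in that direction.

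**Figure D2:**
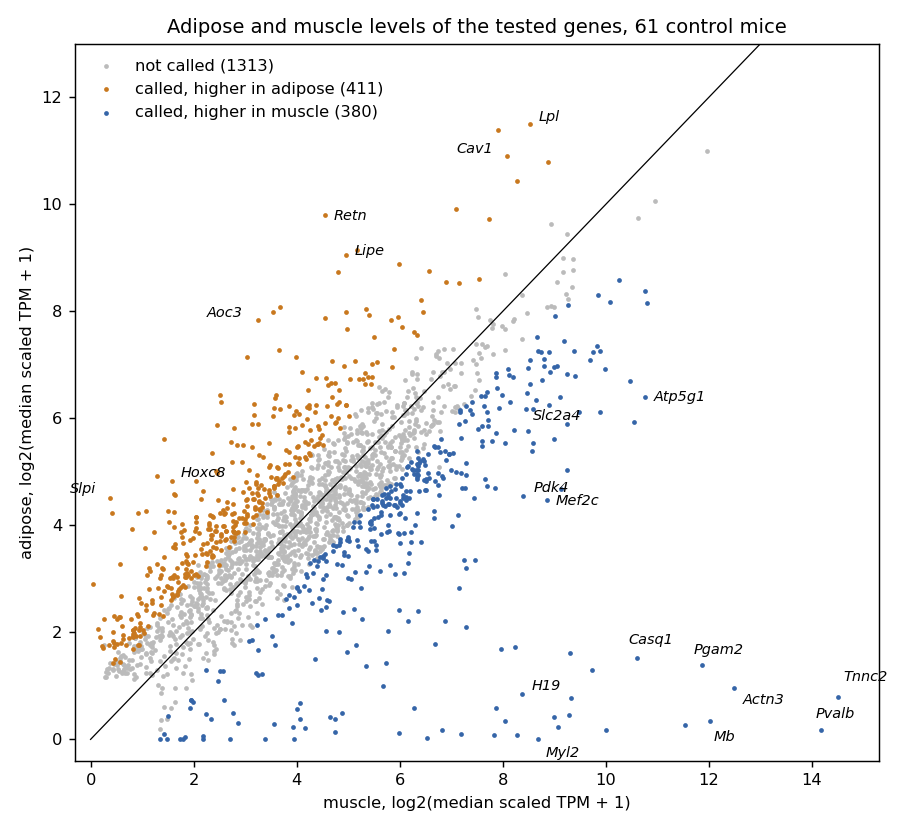
Median scaled TPM in adipose tissue against muscle for each of the 2104 tested genes over 61 control mice, both on a log2(value + 1) axis, with the line of equal levels. The 380 genes called higher in muscle (blue) reach far below the line along the bottom axis, while the 411 called higher in adipose tissue (orange) lie nearer to it on this scale.

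Genes of the adipocyte were among the largest differences towards adipose tissue. Of the 9 adipocyte genes tested, 6 were higher in adipose tissue, 1 was higher in muscle and 2 were not called (8, 0 and 1 as deposited), with a median difference of 2.63 (log2) against 0.07 over all tested genes. Retn, which encodes the adipocyte hormone resistin, had the largest difference towards adipose tissue. Its level was 192 at the lowest, 893 at the median and 2281 at the highest in adipose tissue, and 0, 22.3 and 249 in muscle. The tissues overlapped, but Retn was higher in adipose tissue in all 61 mice, with a difference of 5.24 ± 0.24 (SE, log2; adjusted p = 4.58e-30). Muscle libraries with the highest Retn were those of mice 67 and 69, which also had the highest adipocyte sums, and only that of mouse 67 lay above the lowest adipose library, that of mouse 69. Aoc3, the vascular adhesion protein and amine oxidase of adipocytes and vessels, ran from 77.3 through a median of 228 to 517 in adipose tissue and from 1.74 through 8.47 to 75.3 in muscle. For Aoc3 the tissues did not overlap, with a difference of 4.46 ± 0.18 (adjusted p = 4.22e-34).

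Pparg, the nuclear receptor that drives adipocyte differentiation, was added to the named genes after its values were seen. Its level was 55.04, 153 and 224 (lowest, median, highest) in adipose tissue and 3.99, 11.6 and 147.8 in muscle, higher in adipose tissue in 59 of 61 mice (3.23 ± 0.16). Lpl, the lipase that clears triglyceride from circulating lipoproteins, had the highest median level among the adipocyte genes in adipose tissue. It ran from 883 through 2890 to 5690 there and from 102.2 through 367 to 1198 in muscle (2.79 ± 0.10). Cd36, a fatty acid transporter, was the smallest of the called adipocyte differences, at 1785 against 468 at the median (1.79 ± 0.09). Slc2a4, which encodes the insulin-responsive glucose transporter GLUT4, went the other way: 32.1, 80.5 and 196 in adipose tissue against 135.3, 402 and 539 in muscle. Slc2a4 was higher in muscle in all 61 mice (-2.25 ± 0.07), and on the deposited scale the difference was -0.94 and not called. Acsl1, an acyl-CoA synthetase, was at 416 against 262 and was not called (0.65 ± 0.08), but was called as deposited (1.96). Mlxipl, the carbohydrate response factor ChREBP, was not called either (0.25 ± 0.10; 1.502 and called as deposited).

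Genes of triglyceride storage and lipolysis showed 7 of 11 higher in adipose tissue and 0 higher in muscle, with a median of 2.63. Lipe encodes hormone-sensitive lipase, which cleaves diacylglycerol in lipolysis. Its level was 155, 532 and 1200 in adipose tissue and 8.79, 30.0 and 275 in muscle, higher in adipose tissue in 60 of 61 mice (3.83 ± 0.17). Prkar2b, the regulatory subunit of protein kinase A that predominates in adipocytes, had 88.3, 254 and 361 against 0.86, 10.7 and 222 (4.07 ± 0.22). The lipid droplet coat protein gene Plin4 was at a median of 963 against 134.9 (2.63 ± 0.09). G0s2, an inhibitor of the triglyceride lipase ATGL, was at 295 against 83.97 (1.78 ± 0.13). Angptl4, a secreted inhibitor of lipoprotein lipase, was at 35.1, 270 and 496 in adipose tissue and 0.63, 11.8 and 142.5 in muscle (4.10 ± 0.19). For Lipe and Prkar2b the muscle libraries of 5 mice (6, 15, 21, 67 and 69) lay above the lowest adipose library, and for Angptl4 those of 11 mice did.

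Fatty acid synthesis genes were higher in adipose tissue for 5 of 9 tested and higher in muscle for 0, with a median of 1.12, and 8 were higher in adipose tissue as deposited. Slc25a1, the mitochondrial citrate carrier that supplies carbon for fatty acid synthesis, was at 67.5, 235 and 1018 in adipose tissue and at 2.93, 22.3 and 503 in muscle (3.31 ± 0.19). Acaca, the acetyl-CoA carboxylase of fatty acid synthesis, was at 51.1, 253 and 1032 against 9.45, 30.1 and 831 (2.70 ± 0.18), higher in adipose tissue in 57 of 61 mice. Of the transcription factors, Nr1h3, the liver X receptor alpha, was higher in adipose tissue (1.12 ± 0.07), and Srebf1, the sterol regulatory factor, stood just under the 2-fold threshold at 157 against 84.6 (0.99 ± 0.08; 2.29 and called as deposited). Without the 13 mice with transcripts of other tissues Srebf1 passed it, at 1.01.

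The remaining genes among the 12 largest differences towards adipose tissue have varied roles. Slpi, a secreted protease inhibitor, was at 1.53, 21.7 and 138.05 against 0, 0.29 and 2.71 (4.09 ± 0.16). Acaa1b, a peroxisomal thiolase, was at a median of 47.8 against 1.68, but at 604 in the liver of control mice, where 64 libraries were used for description. Acp5, the tartrate-resistant acid phosphatase of macrophages and osteoclasts, was at 141.02 against 7.22. Slc1a5, a glutamine transporter, was at 428 against 27.1, and Ltc4s, which makes leukotriene C4, at 85.6 against 4.72. Mmd, a membrane protein named for monocyte to macrophage differentiation, was at 564 against 34.8, and Dram1, a lysosomal membrane protein linked to autophagy, at 77.7 against 4.802. Their differences ran from 3.38 for Dram1 to 4.09 for Slpi, and each was higher in adipose tissue in 60 or 61 of the 61 mice.

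**Figure D3:**
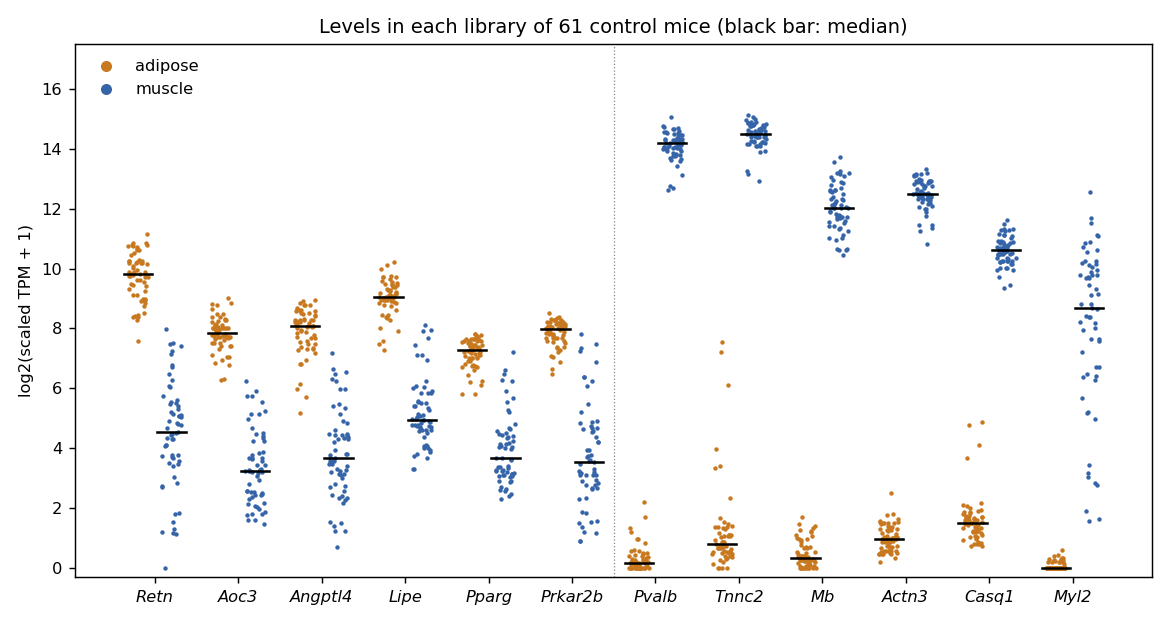
Scaled TPM of 6 genes higher in adipose tissue (left) and 6 genes higher in muscle (right) in each adipose (orange) and muscle (blue) library of 61 control mice, on a log2(value + 1) axis with black bars at the median. The adipocyte genes span a wide range in muscle libraries, and Myl2 spans the widest range among the muscle genes, from 1.94 to 6077.

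Genes of contraction and calcium handling were the largest differences of all, and those called ran towards muscle. The sarcomere list had 4 of 4 tested genes higher in muscle (median -8.48), excitation-contraction coupling 14 of 14 (median -6.83) and the Z disc, M band and costamere list 7 of 8 (median -5.73). Under all 4 scalings 4, 11 and 6 of them were called. Only 1, 6 and 4 of the tested genes of these lists passed the minimum in both tissues. Those that passed in 1 tissue only had to differ towards it. Pvalb encodes parvalbumin, the calcium buffer of fast fibres. Its level was 6377, 18530 and 33920 in muscle and 0, 0.13 and 3.59 in adipose tissue (-13.8 ± 0.09). Tnnc2, the troponin C of fast fibres, was at 7849, 23290 and 35960 in muscle and at 0, 0.72 and 187 in adipose tissue (-13.2 ± 0.21). Its adipose values above 10 came from mice 14, 66, 13 and 69, the libraries with high sarcomere sums. Tnnc2 is itself part of those sums, so the match is not independent. Because differences are taken after adding 1 to each value, those of genes near 0 in adipose tissue are smaller than the ratio of the levels.

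The Z disc genes Actn3 and Tcap followed. Actn3, the alpha-actinin of fast fibres, was at 1802, 5774 and 10210 in muscle and 0.15, 0.96 and 4.72 in adipose tissue (-11.5 ± 0.08). Tcap, which caps titin at the Z disc, was at 1015, 2987 and 4634 in muscle and at most 1.24 in adipose tissue (-11.2 ± 0.06). Casq1, the calcium store of the sarcoplasmic reticulum, was at 654, 1559 and 3150 in muscle and 0.65, 1.86 and 28.2 in adipose tissue (-8.96 ± 0.12). Jsrp1 and Trdn, which sit at the junction with the surface membrane, were at medians of 535 and 637 in muscle and 0.17 and 0.71 in adipose tissue. Mybpc1, the myosin-binding protein C of slow fibres, was at 149.4, 627 and 2246 in muscle, and Tmod4, which caps thin filaments, at 213, 854 and 1508. The highest adipose values were 50.9 for Mybpc1 and 7.08 for Tmod4, and for all of these genes the tissues did not overlap.

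Levels in muscle varied widely between mice for Myl2 and Mb. Myl2, the regulatory light chain of slow fibres, had its lowest muscle values in mice 71 and 59 (1.94 and 2.11) and its highest in mice 1 and 68 (3294 and 6077), with a median of 411. Mb, myoglobin, was at 1399, 4195 and 13630, and mouse 1 had the highest value for Mb as well. Myl2 was at a median of 0 and at most 0.52 in adipose tissue, and Mb at a median of 0.27 and at most 2.26. The differences were -7.97 ± 0.34 for Myl2 and -11.6 ± 0.12 for Mb. The labels do not say which muscle was sampled, and whether its fibre makeup differed between mice was not tested.

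Other genes of the fibre were Eef1a2, the muscle and neuron form of translation elongation factor 1 alpha, and Rpl3l, the muscle form of ribosomal protein L3. Eef1a2 was at 251, 1023 and 1438 in muscle and at most 2.06 in adipose tissue (-9.52 ± 0.09). Rpl3l was at 173, 507 and 666 against at most 10.97 (-8.33 ± 0.09). Of 11 myogenic regulators tested, 6 were higher in muscle and 1 was higher in adipose tissue, with a median of -1.31, against 3 in each direction and a median of 0.02 on the deposited scale. Of these 11 regulators, 7 passed the minimum in both tissues. Mef2c, the MADS-box factor that activates muscle genes, was at 171, 463 and 720 in muscle and 11.7, 21.2 and 33.9 in adipose tissue, without overlap (-4.28 ± 0.06). Mef2d differed less, at 65.01 against 19.9 (-1.72 ± 0.06), and was not called on the deposited scale (-0.44).

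Mitochondrial genes were higher in muscle relative to the typical gene, and most of these calls depend on the scaling. Of the nuclear-encoded electron transport chain genes, 21 of 23 were higher in muscle and 1 was higher in adipose tissue (median -2.22), with 10 of the 21 called under all 4 scalings. On the deposited scale 10 were higher in muscle and 2 higher in adipose tissue, with a median of -0.92. Atp5g1, a form of the ATP synthase c subunit, had the largest difference. It was at 578, 1742 and 2627 in muscle and 53.6, 83.3 and 235 in adipose tissue, without overlap (-4.18 ± 0.07; -2.87 as deposited). Atp5e of the ATP synthase was at 1787 against 286 (-2.56 ± 0.06) and held on the deposited scale, while Cox6c of cytochrome oxidase (-2.29 ± 0.06; -0.97 as deposited) and Uqcr11 of complex III (-1.61 ± 0.05; -0.29 as deposited) were not called there. The exception in the list was Slc25a5, an adenine nucleotide translocator, which was at 134.1, 187 and 288 in adipose tissue and 49.5, 79.5 and 217 in muscle (1.21 ± 0.06); it was named after its values were seen.

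Of 14 genes of the citric acid cycle and pyruvate dehydrogenase, 13 were higher in muscle and 0 higher in adipose tissue (median -1.63; -0.33 as deposited), and 2 were called under all 4 scalings, while 1 was called higher in adipose tissue as deposited. Sdhb, the iron-sulfur subunit of succinate dehydrogenase, was at 276, 678 and 967 in muscle and 67.8, 110 and 192 in adipose tissue, without overlap (-2.54 ± 0.06). Sdhb was called on the deposited scale too, unlike Mdh1 (-1.41), Mdh2 (-1.99) and Idh3g (-1.94), which were at -0.09, -0.68 and -0.63 there. Of 9 genes of fatty acid oxidation, 3 were higher in muscle and 2 higher in adipose tissue (median 0.10), against 2 and 5 as deposited (median 1.23). Over all tested genes these shares were 18.1% and 19.5%, against 5.37% and 58.99% as deposited. The 2 of 9 higher in adipose tissue are near the share of all tested genes. Angptl4, 1 of the 2 higher in adipose tissue, and Pdk4, 1 of the 3 higher in muscle, encode no oxidation enzyme. Pdk4, the kinase that shuts off pyruvate dehydrogenase when fat is burned, was at 118.1, 334 and 1216 in muscle and 4.94, 22.5 and 165 in adipose tissue (-3.69 ± 0.11). Acadvl, the first mitochondrial oxidation enzyme for long chains, was at 292 against 108.8 (-1.37 ± 0.07; -0.06 as deposited and not called).

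Of 11 glycolysis and glycogen genes, 6 were higher in muscle and 2 were higher in adipose tissue (median -1.39), against 4 and 3 as deposited (median -0.10). Over all tested genes 18.1% were called higher in muscle and 19.5% higher in adipose tissue, against 5.37% and 58.99% as deposited. The 2 of 11 higher in adipose tissue are near that share. Ugp2 makes UDP-glucose for glycogen and was at 221, 609 and 1257 in muscle and 33.8, 58.9 and 104.7 in adipose tissue (-3.23 ± 0.08). Gyg, the glycogenin that starts the glycogen particle, was at 385 against 45.6 (-3.01 ± 0.06). The 2 genes higher in adipose tissue were Pgam1 and Pfkl, the liver form of phosphofructokinase, at 43.1 against 7.80 (2.24 ± 0.12), named after its values were seen. In creatine and purine metabolism, 3 of 7 genes were higher in muscle, myoglobin among them, and 2 were higher in adipose tissue (2 and 4 as deposited). Ckb, the brain form of creatine kinase, was at 20.6, 64.7 and 407 in adipose tissue and 4.83, 10.7 and 20.3 in muscle, without overlap (2.62 ± 0.12). Slc6a8, the creatine transporter, was at 74.05 in muscle against 13.8 (-2.23 ± 0.10; -0.96 as deposited and not called).

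**Figure D4:**
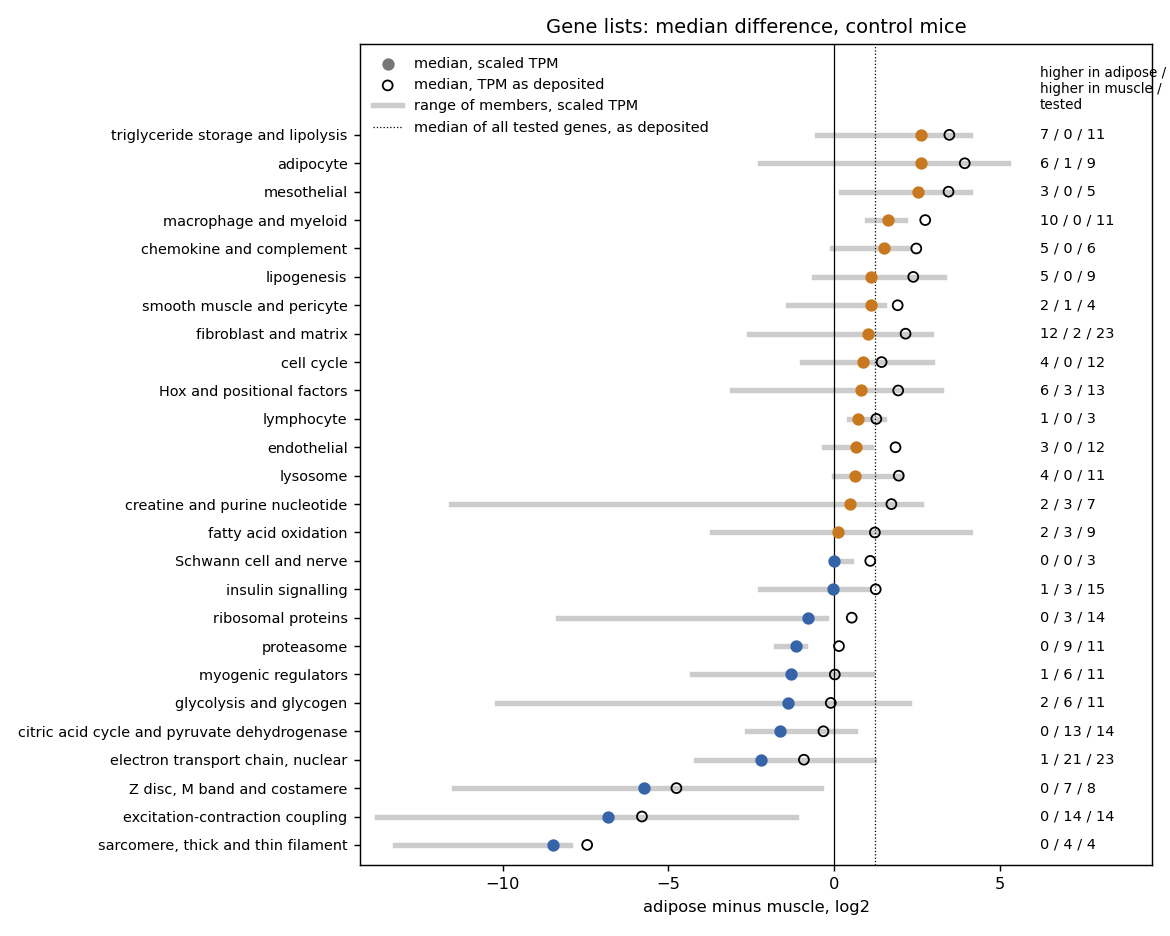
Median difference (adipose minus muscle, log2) of the tested members of each gene list with at least 3 of them in 61 control mice, with grey bars for the lowest and highest member, filled points for scaled TPM and open points for TPM as deposited; the counts at right give members called higher in adipose tissue, called higher in muscle, and tested. The contractile lists lie far left on both scales, while the medians of the ribosomal, proteasome, myogenic, insulin signalling and Schwann cell lists change sign between them.

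Paralogs give a comparison that no scaling can move, since both members are measured in the same library. Shares are taken over the tested members of each family only, so other members of a family do not enter. Phosphoglycerate mutase converts 3-phosphoglycerate to 2-phosphoglycerate in glycolysis. Pgam2, its muscle form, made up 91.3% to 99.6% of the summed TPM of Pgam1 and Pgam2 in muscle (median 99.2%), and 0.41% to 32.2% in adipose tissue (median 1.41%). Pgam2 was at 1144, 3760 and 6443 in muscle and 0.54, 1.61 and 49.8 in adipose tissue (-10.2 ± 0.13). Pgam1 was at 79.6, 124.8 and 174 in adipose tissue and 15.8, 29.1 and 170 in muscle (1.83 ± 0.08), so its highest muscle library reached the adipose range. For the alpha-actinins, Actn3 was 99.2% to 99.96% of the pair in muscle and 0.36% to 13.2% in adipose tissue, with Actn1 at 24.9 in adipose tissue against 7.46 in muscle (1.61 ± 0.10). Adssl1, the muscle form of adenylosuccinate synthase in the purine nucleotide cycle, was 92.3% to 99.1% of its pair in muscle and 3.89% to 37.6% in adipose tissue. Adssl1 was at 636 against 2.07 (-7.30 ± 0.11), while the non-muscle Adss was at 13.3 against 20.0 and was not called (0.59 ± 0.04; 1.80 and called as deposited).

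Sarcoglycans tie the cytoskeleton to the matrix in the dystrophin complex. Sgca, the striated muscle form, was 40.5% to 83.4% of the 3 sarcoglycans measured in muscle and at most 20.0% in adipose tissue (-6.97 ± 0.13). Sgce, the widely expressed form, was 26.7% to 50.9% in adipose tissue and 0.84% to 16.7% in muscle (1.49 ± 0.07), and Sgcd was not called (-0.40 ± 0.07; 0.90 as deposited). Of the pyruvate dehydrogenase kinases, Pdk1 (-1.52 ± 0.08; -0.24 as deposited and not called) and Pdk4 were higher in muscle, and Pdk4 was 84.1% of the pair in muscle against 51.7% in adipose tissue at the median, with overlapping ranges. Cav1 and Cav2, caveolins that coat the membrane pits abundant in adipocytes and endothelium, kept the same proportion to each other in both tissues. Cav1 was 88% of Cav1 and Cav2 in adipose tissue and 87.7% in muscle at the median, at levels of 1911 against 269 for Cav1 (2.52 ± 0.09) and 243 against 41.3 for Cav2 (2.48 ± 0.09). The kinases Akt1 and Akt2, which relay insulin signals, were not called (-0.04 ± 0.04 and -0.37 ± 0.05), and as deposited both changed sign, with Akt1 called (1.25) and Akt2 not (0.94).

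**Figure D5:**
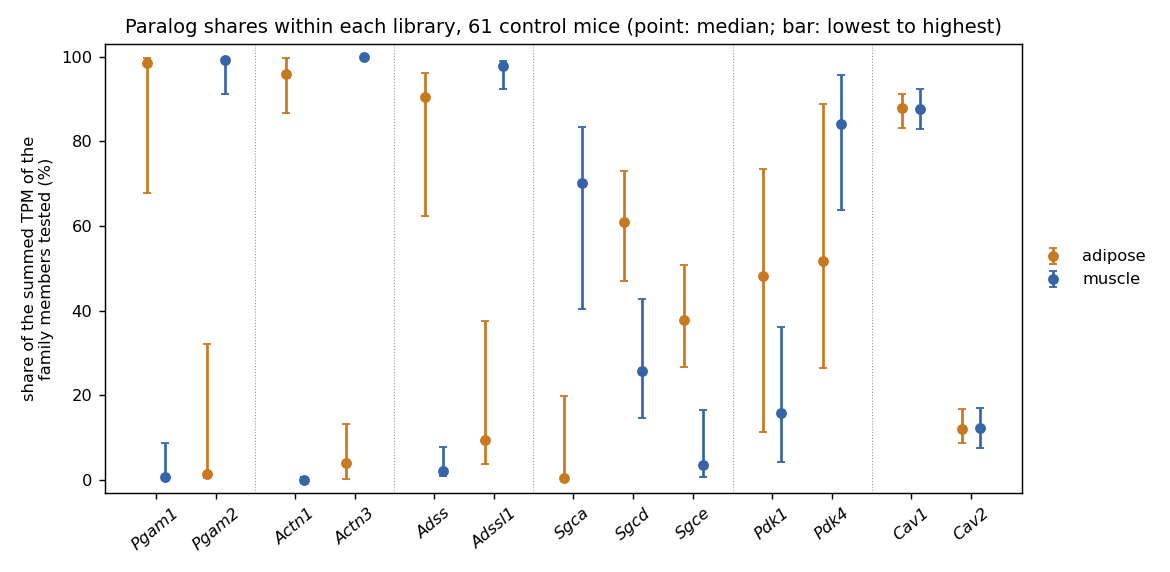
Share of each paralog in the summed TPM of its tested family members, for adipose (orange) and muscle (blue) libraries of 61 control mice, with points at the median and bars from the lowest to the highest library. Pgam2, Actn3 and Adssl1 exchange places with Pgam1, Actn1 and Adss between the tissues, while Cav1 and Cav2 hold the same share in both.

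Promoter sequences are shown for the muscle and general forms of phosphoglycerate mutase, which exchange places between the tissues, for Pvalb, which had the largest difference, and for Pparg, as a regulator of adipocyte differentiation. Each is the 250 bases before a RefSeq start on GRCm38.p6, written 5′ to 3′ on the gene's strand. Pgam2 is at chr11:5803797-5804046 (minus strand), Pgam1 at chr19:41911621-41911870 (plus strand), Pvalb at chr15:78206401-78206650 (minus strand, the first of 2 windows) and Pparg at chr6:115421816-115422065 (plus strand, the third of 3 windows). Capitals mark matches, on either strand, to CAGCTG (an E-box bound by myogenic factors), the MEF2 motif, TTGCNNAA (a C/EBP-like site), AGGTCA (a nuclear receptor site) and TATAAA. No match overlaps another in these windows.
Pgam2: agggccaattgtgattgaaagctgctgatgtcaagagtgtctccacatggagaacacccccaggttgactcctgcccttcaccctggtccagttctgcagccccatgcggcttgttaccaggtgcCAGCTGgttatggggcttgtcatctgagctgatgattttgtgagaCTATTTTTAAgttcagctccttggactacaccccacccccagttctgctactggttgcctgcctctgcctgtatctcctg
Pgam1: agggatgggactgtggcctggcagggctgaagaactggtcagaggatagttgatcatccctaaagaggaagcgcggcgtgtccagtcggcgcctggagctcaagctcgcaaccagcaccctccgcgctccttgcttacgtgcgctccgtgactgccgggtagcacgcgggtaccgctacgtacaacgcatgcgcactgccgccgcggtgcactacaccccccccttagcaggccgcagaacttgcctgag
Pvalb: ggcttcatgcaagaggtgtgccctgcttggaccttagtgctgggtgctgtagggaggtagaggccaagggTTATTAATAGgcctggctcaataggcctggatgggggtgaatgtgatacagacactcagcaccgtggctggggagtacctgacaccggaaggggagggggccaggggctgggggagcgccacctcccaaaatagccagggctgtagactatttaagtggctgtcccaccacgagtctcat
Pparg: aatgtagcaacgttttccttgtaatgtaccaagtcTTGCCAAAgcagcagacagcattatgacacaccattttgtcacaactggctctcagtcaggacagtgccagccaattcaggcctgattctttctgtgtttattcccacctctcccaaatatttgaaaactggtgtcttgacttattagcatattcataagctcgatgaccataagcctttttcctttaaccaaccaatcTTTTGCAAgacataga
The Pgam2 window holds 1 CAGCTG and 1 MEF2 match, and the Pgam1 window holds no match to any of the 5 motifs. The Pvalb window holds 1 MEF2 match, and the Pparg window 2 TTGCNNAA matches. The other Pvalb window holds no match to any of the motifs, and the other 2 Pparg windows hold 0 TTGCNNAA and 1 AGGTCA each, with 1 TATAAA in the second. Of all 32851 promoter windows of this length, 13% hold CAGCTG, 2.92% MEF2, 9.56% TTGCNNAA, 14% AGGTCA and 12.4% TATAAA. Among the 77 windows of genes at least 8-fold higher in muscle (56 of 71 genes had a window), 26% hold CAGCTG, 9.09% MEF2, 11.7% TTGCNNAA, 23.4% AGGTCA and 14.3% TATAAA. Among the 2212 windows of all tested genes these shares are 12.3%, 1.18%, 6.83%, 10.5% and 6.51%, so all 5 motifs were more frequent in the muscle set. Among the 22 windows of genes at least 8-fold higher in adipose tissue (14 of 20 genes), 0 hold CAGCTG or MEF2, while 13.6% (3 windows) hold TTGCNNAA, 13.6% AGGTCA and 9.09% TATAAA. Windows of 1 gene can share sequence, these shares were not tested, and a match is a description of the letters only.

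Lists of other cell types in the tissue differed in how many of their genes were called. Of all tested genes, 19.5% were called higher in adipose tissue and 18.1% higher in muscle. In bulk samples, more cells of a type and more RNA per cell cannot be told apart. Of 11 macrophage and myeloid genes, 10 were higher in adipose tissue and 0 higher in muscle (median 1.63). Cd68, a lysosomal protein of macrophages, was at 11.9, 27.1 and 281 in adipose tissue and 1.65, 8.23 and 33.4 in muscle, higher in adipose tissue in 61 of 61 mice (1.97 ± 0.13). Cyba of the phagocyte oxidase was at 41.3 against 12.8 (1.63 ± 0.10). Clec10a and Cd163, receptors of resident macrophages, were at 28.5 against 11.05 and 26.1 against 8.86 (1.398 ± 0.12 and 1.46 ± 0.10). Of 6 chemokine and complement genes, 5 were higher in adipose tissue. Ccl6 was at 57.8 against 16.3 (2.23 ± 0.17), Ccl9 at 29.8 against 8.38 (1.93 ± 0.16) and Ccl8 at 17.7 against 4.74 (1.47 ± 0.20). Of 3 lymphocyte genes tested, Ikzf1 was higher in adipose tissue (1.498 ± 0.14; 0.67 and not called with a pseudocount of 5), while all 3 were called as deposited. Only 1 of these 3 genes passed the minimum in both tissues, and those that passed in 1 tissue only had to differ towards it. Lck, at a median of 0.26 in muscle, reached 47.1, 28.1 and 19.3 in the muscle libraries of mice 62, 21 and 10 and was not called (0.71 ± 0.14), but was as deposited (1.21) and with a pseudocount of 0.1 (1.88). Of 3 Schwann cell and nerve genes 0 were called (2 higher in adipose tissue as deposited).

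Of 23 matrix and fibroblast genes, 12 were higher in adipose tissue and 2 higher in muscle (median 1.00), against 21 and 0 as deposited (median 2.15). Sparc, a secreted collagen-binding protein, was at 395, 1385 and 2778 in adipose tissue and 168, 308 and 952 in muscle (2.13 ± 0.08). Nid1, which links laminin to collagen in basement membrane, was at 183 against 44.3 (1.99 ± 0.07). Dcn, decorin, which coats collagen fibrils, was at 261, 513 and 1051 in adipose tissue and 151, 576 and 1161 in muscle and did not pass at any fold (-0.16 ± 0.09, adjusted p = 0.083; 1.15 as deposited). Serpinf1, a secreted antiangiogenic factor, was at 130 against 134.3 and was not called (0.24 ± 0.12; 1.54 and called as deposited). Of 12 endothelial genes, 3 were higher in adipose tissue and 0 higher in muscle (median 0.66), against 11 and 0 as deposited (median 1.85), with Esam of endothelial junctions at 58.95 against 25.7 (1.12 ± 0.05). The scaled count, 3 of 12, is near the share of all tested genes called higher in adipose tissue, 19.5%. The deposited count, 11 of 12, is above the share of all tested genes on that scale, 58.99%. Pecam1 (0.67 ± 0.06), Cd34 (0.05 ± 0.06) and Aqp1 (-0.31 ± 0.05) were not called, and as deposited Pecam1 (1.96) and Cd34 (1.34) were called and Aqp1 was at 1.00. The mesothelial list had 3 of 5 higher in adipose tissue (5 as deposited): Cav1, which many other cells express, Slpi, and Wt1, a factor of kidney and mesothelium named after its values were seen. Only 3 of these 5 genes passed the minimum in both tissues, and those that passed in 1 tissue only had to differ towards it. Wt1 was at 3.47, 6.48 and 15.4 against 0, 0.04 and 0.69, without overlap (2.87 ± 0.06).

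Of 4 smooth muscle genes, 2 were higher in adipose tissue and 1 higher in muscle (3 and 0 as deposited), and the values rest partly on a few libraries. Myh11, the smooth muscle myosin, was at 15.9, 53.8 and 1368 in adipose tissue and 9.13, 18.3 and 60.98 in muscle (1.49 ± 0.20), and without the 13 mice with transcripts of other tissues its difference was 1.197. Cnn1, calponin, was at 0.34, 7.55 and 644 against 0.34, 2.59 and 14.1 (1.37 ± 0.29), and without those mice it was 0.90 and no longer called. Smtn, smoothelin, was higher in muscle at 72.3 against 24.0 (-1.38 ± 0.10; -0.10 as deposited and not called).

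Transcription factors that mark position along the body differed in both directions. Of 13 Hox and positional genes tested, 6 were higher in adipose tissue and 3 higher in muscle, against 9 and 3 as deposited. Over all tested genes 19.5% were called higher in adipose tissue and 18.1% higher in muscle. Only 6 of the 13 passed the minimum in both tissues, and those that passed in 1 tissue only had to differ towards it. Hoxc8 was at 10.1, 27.5 and 53.4 in adipose tissue and 0, 1.97 and 7.42 in muscle, without overlap (3.24 ± 0.10). Hoxa10 ran the other way, at 8.24, 15.1 and 29.02 in muscle and 0, 0.49 and 24.5 in adipose tissue (-3.08 ± 0.14). Its adipose values above 4.35 were those of mice 13, 14, 58, 66 and 69, the adipose libraries with the high smooth muscle sums. Only these reached the muscle range of Hoxa10. Hoxc6 was higher in adipose tissue (1.38 ± 0.07), as were Hoxb6 (1.94 ± 0.12), Gata6 (2.08 ± 0.07) and Tbx2 (1.28 ± 0.11), which encodes a T-box factor. Hoxc11, at 5.54 in muscle and a median of 0 in adipose tissue (-2.63 ± 0.06), and Tbx1 (-1.89 ± 0.15) were higher in muscle. Hoxb6, Gata6, Tbx2, Hoxc11 and Tbx1 were named after their values were seen. All of these factors were at low levels, and the differences of Hoxb6, Hoxc6, Gata6, Tbx1 and Tbx2 were below 2-fold with a pseudocount of 5.

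For genes of general cell functions the calls depend on the scaling. Of all tested genes, 18.1% were called higher in muscle and 19.5% higher in adipose tissue, against 5.37% and 58.99% as deposited. Of 14 ribosomal protein genes, 3 were higher in muscle, Rpl3l among them, and the median was -0.79, against 1 in each direction and a median of 0.53 as deposited. Rplp1 was at 858 against 1578 (-0.78 ± 0.05; 0.53 as deposited). Of 11 proteasome genes, 9 were higher in muscle (median -1.15), but 0 were called under all 4 scalings and the median was 0.14 as deposited. Psmc3, an ATPase of the regulatory particle, was at 282 against 78.6 (-1.77 ± 0.05; -0.46 as deposited), and Psmb6, a catalytic core subunit, at 358 against 121.4 (-1.53 ± 0.05; -0.22 as deposited). Of 15 insulin signalling genes, 3 were higher in muscle and 1 was higher in adipose tissue (median -0.04), while as deposited 0 were higher in muscle and 8 higher in adipose tissue (median 1.25). Rab10, a GTPase of GLUT4 vesicles, was at 221 against 46.8 (-2.15 ± 0.05; -0.85 as deposited and not called). Of 11 lysosome genes, 4 were higher in adipose tissue and 0 higher in muscle (median 0.63), while all 11 were higher in adipose tissue as deposited (median 1.95), with Ctsz at 105.4 against 38.1 (1.5 ± 0.09) and the most abundant, Ctsd and Psap, not called (0.63 ± 0.08 and 0.29 ± 0.06; 1.95 and 1.61 and called as deposited). Of 12 cell cycle genes, 4 were higher in adipose tissue (10 as deposited), led by Ccnd2, cyclin D2, at 43.4, 76.5 and 134.3 against 4.90, 8.07 and 30.9, without overlap (2.95 ± 0.08). Only 4 of these 12 genes passed the minimum in both tissues, and those that passed in 1 tissue only had to differ towards it.

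The spread between mice differed by gene group as well as by tissue. Over all tested genes the median SD of log2 values was 0.28 in adipose tissue and 0.34 in muscle. It was 0.55 and 0.74 for the 11 triglyceride storage genes, 0.74 and 0.69 for the 11 macrophage genes, 1.21 and 0.52 for the 4 smooth muscle genes, and 0.18 and 0.28 for the 11 proteasome genes. These spreads are over animals with different genomes and include the differences between libraries described above.

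High-fat mice gave a second, separate set of animals in which the same tissues were compared. Libraries of both diets were scaled to 1 reference per tissue, and the tested genes and the constant between tissues came from control mice. The comparison is therefore no check on that constant. By the same library rule 63 high-fat mice had both tissues, and 806 of the 2104 genes were called (38.3%), 415 higher in adipose tissue (19.7%) and 391 higher in muscle (18.6%). Of the 791 genes called in control mice, 716 were called in the same direction in high-fat mice and 0 had the opposite sign. Across the 2104 genes, which are not independent replicates, Pearson's r between the differences was 0.989. Pvalb was at -13.01 against -13.8 in control mice, Tnnc2 at -12.9 against -13.2 and Aoc3 at 3.86 against 4.46. Retn was at 4.01 in high-fat mice against 5.24 in control mice, G0s2 at 1.05 against 1.78, Acaca at 1.98 against 2.70, and Lipe at 3.24 against 3.83. Cd68 was at 3.25 against 1.97, Cyba at 2.61 against 1.63 and Ccl9 at 2.75 against 1.93. Whether the tissue differences differ between diets was not tested here.

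Liver levels place these differences beside a tissue outside the pair. Liver libraries were scaled in the same way and set to the level of the pair by a constant of their own. That constant was not varied, and the counts below depend on it. Among the 411 genes higher in adipose tissue, the median of 64 control livers was below 50% of the adipose median for 227 and at or above the adipose median for 28.5%. Among the 380 genes higher in muscle, it was below 50% of the muscle median for 248 and at or above the muscle median for 29. Retn, Pvalb, Tnnc2, Mb, Actn3 and Casq1 were at a median of 0 in liver, while Acaa1b, Srebf1 and Slc25a5 were higher there than in adipose tissue.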

How the data were processed

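Total RNA libraries (stranded, MiSeq) of liver, muscle and adipose tissue were made from each mouse, per the labels' protocols. The values are TPM that the authors deposited, with 1 table per tissue. Per the submitters' processing notes, Bowtie 1.2.2, Trim Galore 0.4.4 and FastQC were used. The quantifier, the genome build and the gene annotation were not given in the sources used here. Of the adipose table, 2728 complete genes were used. TPM keep no depth, so no interval from counts is given. All per-sample columns used matched a labelled sample (0 did not).

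Within each tissue, libraries were scaled by a trimmed mean of log ratios (trimming 0.3 and 0.05) over 2713 nuclear protein-coding genes, and 1 constant then aligned the tissues. Genes at 1 scaled TPM or more in 70% of mice in either tissue were tested on log2(scaled TPM + 1) with limma 3.58.1 in R 4.3.3 (trend, robust), with the mouse as block and Benjamini-Hochberg adjustment. Fold changes on this scale understate those of low genes. The pairing by mouse number rests on the labels. Over 150 genes chosen in the mice of the other diet, adipose and muscle libraries of 1 mouse correlated at a median of 0.44, against -0.01 for different mice, with a lowest value of -0.03, and 47 of 61 mice were mutual best matches.

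Named genes are the 12 with the largest differences in each direction at a mean of at least 20 scaled TPM, up to 4 tested members per gene list with the largest mean, and tested members of paralog families. Of the 123 genes this gives, those that bear on a result are printed, and genes outside the rule are marked as named after their values were seen. The members, lists and tests were chosen with earlier results of these data known. Replicates are separate mice. Alternatives were other scalings, pseudocounts, filters, no block and other sets of mice. The code was tested on simulated data. Promoters came from RefSeq on GRCm38.p6, and 89 of the 123 named genes had a window. A few genes are not reported here.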

Additional observations from a re-analysis of the deposited data

How the results depend on the processing

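Of the tested genes in control mice 37.6% were called, against 64.4% on TPM as deposited, 60.7% with the tissues anchored on the proteasome genes and 24.7% with a pseudocount of 5. The share higher in adipose tissue (19.5%) was 58.99% as deposited, 47.6% with libraries scaled to the same sum, 54.6% with the proteasome anchor and 10.1% with a pseudocount of 5, and the share higher in muscle (18.1%) was 5.37%, 6.92% and 6.10% under those 3 scalings. In high-fat mice the total (38.3%) was 67.8% as deposited and 60.0% with the proteasome anchor, the share higher in adipose tissue (19.7%) was 62.6%, 46.9%, 53.9% and 11.1% in the same order, and the share higher in muscle (18.6%) was 5.18%, 7.30% and 6.10%. The split between directions depends on the constant between tissues. With no replicate block, that is without the pairing by mouse, 791 genes were called and 1939 passed at any fold, and no gene named here changed its call.

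Named genes near 0 changed sign under scalings. As deposited, with equal sums and with the proteasome anchor, the differences were 1.25, 0.93 and 1.09 for Akt1, 0.94, 0.62 and 0.78 for Akt2, 1.00, 0.68 and 0.84 for Aqp1, 1.15, 0.83 and 0.99 for Dcn, 0.53, 0.21 and 0.37 for Rplp1, and 0.90, 0.58 and 0.74 for Sgcd. Cd34 was -0.000349 without mice not matched by correlation and -0.00406 without the libraries holding transcripts of other tissues, an alternative chosen after seeing the data. That alternative left 853 called genes, and Cnn1 fell below 2-fold. The depth of the libraries is unknown, so what low values can show is not known either.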

Other observations

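All genes of this section were named after their values were seen, with no list behind them. H19, an imprinted noncoding RNA, was at 50.4, 332 and 986 scaled TPM (lowest, median, highest) in muscle and 0, 0.81 and 5.08 in adipose tissue, without overlap (-7.39 ± 0.12, SE, log2; limma adjusted p = 1.09e-57). Plagl1, a zinc finger factor, was at 7.55, 22.9 and 68.5 in adipose tissue and 0.57, 2.11 and 6.04 in muscle, also without overlap (2.93 ± 0.12). Grb10, an adaptor of the insulin receptor, was at 23.7 against 22.9 and was not called (0.02 ± 0.05; 1.28 and called as deposited).

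Rapsn, Chrne and Scn4a were higher in muscle in all 61 mice. Rapsn, which clusters acetylcholine receptors, was at 25.8 against 0.31 (-4.28 ± 0.05), Chrne, a receptor subunit, at 14.2 against 0.17 (-3.44 ± 0.10), and Scn4a, the muscle sodium channel, at 226 against 0.05 (-7.70 ± 0.05). Rbfox1, a splicing factor, was at 38.8, 145.1 and 228 in muscle and at most 1.47 in adipose tissue (-6.94 ± 0.07). The mitochondrial outer membrane channels Vdac1 (-3.72 ± 0.05) and Vdac3 (-3.32 ± 0.05) and the ubiquitin-conjugating enzymes Ube2b (-3.34 ± 0.05), Ube2d1 (-3.83 ± 0.06) and Cdc34 (-3.18 ± 0.06) were higher in muscle on the deposited scale too. Apoe, an apolipoprotein, was at 2681 in adipose tissue against 240 in muscle (3.24 ± 0.11), and at 24504 in liver. Igf1, a growth factor, was at 97.1 against 23.4 (1.94 ± 0.08), and at 659 in liver.

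Pgam2 reached 49.8, 30.8 and 22.1 in the adipose libraries of mice 64, 68 and 11, against an adipose median of 1.61. These are not the 4 adipose libraries with the highest Tnnc2.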
